A study of Mus musculus with 24 samples.

Results

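Treadmill training was compared with sedentary housing in the subcutaneous fat of kinase dead female mice, across every microRNA (miRNA) expressed there. All libraries labelled with the kinase dead genotype were taken, which gave 6 sedentary and 6 trained libraries, 12 of the 24 in the series. The other 12 libraries, 6 sedentary and 6 trained, are from wild type mice. Kinase dead names a genotype whose kinase is made without catalytic activity; the labels do not say which kinase it is, in which cells the change acts, or how old the mice were. All mice were female, ate chow and lived at constant room temperature under a light-dark cycle. Trained mice ran on a motorised treadmill for 1 hour on 5 days a week over 6.5 weeks at 16 m/min, and the protocol adds free access to a running wheel without saying whether sedentary mice had one. The labels do not say that each library is a separate animal, so p-values measure only the spread between these libraries.

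A miRNA is a short RNA cut from a hairpin precursor and loaded into an Argonaute protein, where bases 2 to 8 from its 5′ end, the seed, pair with target messenger RNAs and lower their translation and stability. The arms of a hairpin are called 5p and 3p, and both can give a mature miRNA. In white fat, miRNAs are known to act on adipocyte differentiation, lipid storage, inflammation and the brown-like programme, and blood, vessels, stroma and skin bring miRNAs of their own into a fat sample. In such bulk tissue, fewer cells of a type and less RNA per cell cannot be told apart.

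The sequences below are those of the miRNAs with the smallest p-values for training among those of at least 10 CPM (read counts scaled to the library total), with miR-129-5p beside the opposite-strand locus that shares its reads. They are mature sequences from RefSeq (GRCm38.p6), written 5′ to 3′ with the seed in capitals.
miR-129-5p: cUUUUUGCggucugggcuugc
miR-129b-3p: cAAGCCCAgaccgcaaaaagauu
miR-664-3p: uAUUCAUUuacuccccagccua
miR-672-5p: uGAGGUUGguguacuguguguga
miR-10a-3p: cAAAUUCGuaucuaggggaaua
miR-28a-5p: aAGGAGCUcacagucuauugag
miR-28a-3p: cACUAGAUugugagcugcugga
miR-184-3p: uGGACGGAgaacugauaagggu
miR-146b-5p: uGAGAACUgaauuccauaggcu
miR-330-5p: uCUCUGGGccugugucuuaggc
miR-24-2-5p: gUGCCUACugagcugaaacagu
No 2 of these miRNAs share a seed.

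The 12 libraries held 2.29 to 23.6 M reads each, with 6.71 ± 4.14 M in the sedentary group and 10.8 ± 7.9 M in the trained group (mean ± SD over 6 libraries). The log2 totals differed by 0.53, p = 0.411 by a two-sided exact permutation test over 924 assignments of the libraries, whose smallest possible p is 0.00216. At these depths 3 reads stand for 0.127 to 1.31 CPM. Of 2045 loci in the table, 654 had enough reads to be tested, and 552 remained when loci that share their reads (copies of 1 mature sequence, or loci facing each other on opposite strands) were counted once. In 4 libraries, sedentary replicates 5 and 6 and trained replicates 3 and 6, the lymphocyte miRNA miR-150-5p lay between 4536 and 6955 CPM, against 551 to 763 CPM in the other 8. Those 4 libraries separated from the others along the first principal component, which held 52% of the variance among the 12, and they divided evenly between the groups.

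No miRNA passed the test for training in kinase dead fat. With edgeR's quasi-likelihood test, 0 of 654 features (0%) had an adjusted p under 0.05, and the smallest adjusted p was 0.887. At an unadjusted p under 0.05 there were 7 higher in the trained libraries (1.07% of those tested) and 10 lower (1.53%), where evenly spread p-values would give 32.7 in all. DESeq2 gave 0 at the adjusted and 17 at the unadjusted threshold. In 0 features (0%) were the trained and the sedentary libraries free of overlap. Over the 552 features counted once, the training difference was above 0 in 255 and below 0 in 297, with a median of -0.02 on the log2 scale.

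The precision behind this depended on abundance. Among the 382 features of at least 10 CPM, the 95% interval of the log2 fold change had a median of 0.41 on either side of the estimate, and in 324 of them (84.8%) the whole interval lay within a 2-fold change either way. In 213 it lay within 1.5-fold. The median size of the log2 fold change in that class was 0.119, with 20 features over 0.5 and 3 over 1. Under 10 CPM the 95% interval reached a median of 0.758 on either side of the estimate, so a 1.5-fold difference was not resolved for most scarce miRNAs at this depth and spread.

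**Figure D1:**
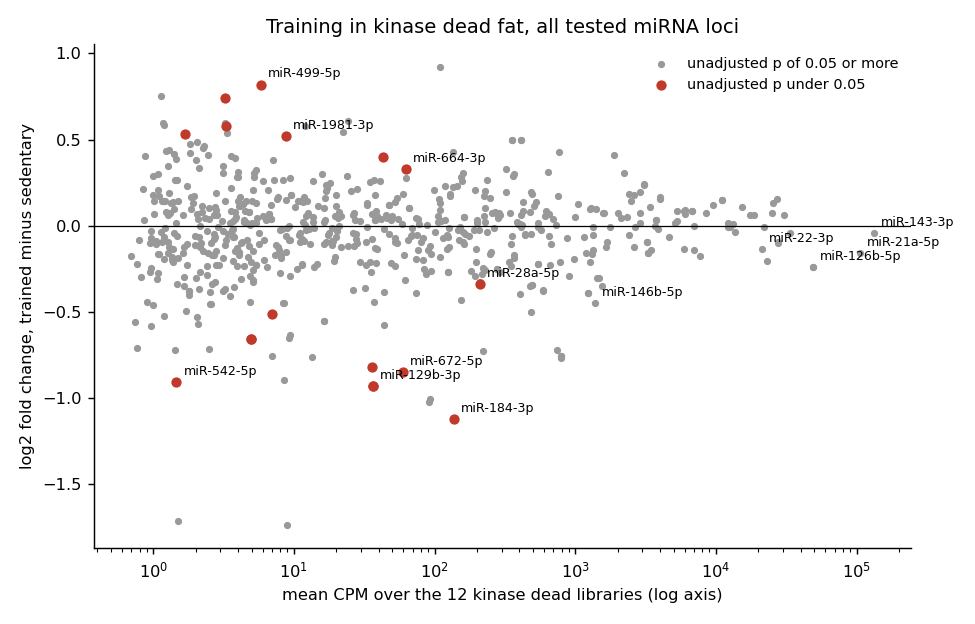
Log2 fold change of training in kinase dead fat against mean CPM (log axis) for the 654 tested loci, with the 17 of unadjusted p under 0.05 in red. The points narrow around 0 towards high CPM, and the most abundant red point, miR-28a-5p, has a mean of 209 CPM.

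Among miRNAs of at least 10 CPM, miR-129-5p came first by p. It is a miRNA known mostly from brain and neuroendocrine cells. Its locus at chr2:94241419-94241439 faces miR-129b-3p at chr2:94241420-94241442 on the opposite strand. The first lies in an intron of the non-coding gene Mir670hg and the second in no gene of its strand. Reads of the pair, and of a second miR-129-5p copy on chromosome 6, cannot be told apart. At miR-129b-3p the sedentary libraries ran from 27.7 over a median of 38.2 to 83.5 CPM, and the trained libraries from 15.01 over 26.4 to 35.5 CPM. All 6 trained libraries lay below the sedentary median, and the groups overlapped between 27.7 and 35.5 CPM, with sedentary replicates 1 and 2 far above the rest. The group means were 47.9 ± 21.4 and 25.3 ± 7.4 CPM, a log2 fold change of -0.93 (SE 0.28), with an edgeR unadjusted p = 0.0029 and an adjusted p = 0.887. The other arm of the same hairpin, miR-129-2-3p, had 11.3 ± 5.4 and 7.27 ± 3.63 CPM and a log2 fold change of -0.65 (SE 0.35). Both arms thus had the same direction, although neither passed. Of 336 features of at least 10 CPM, shared reads counted once, 15 had all 6 trained libraries below the sedentary median. In 12 others all 6 lay above it.

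miR-28a lies in an intron of Lpp, a gene of cell adhesion and motility, at chr16:24827868-24827889 (5p) and chr16:24827908-24827929 (3p). Its 5p arm ranged from 176 over a median of 238 to 269 CPM in the sedentary and from 145.2 over 183.2 to 230.2 CPM in the trained libraries. Its 3p arm ranged from 205.7 over 239.1 to 273 CPM and from 169.5 over 204.0 to 224.5 CPM. On both arms all 6 trained libraries were under the sedentary median, with overlap at the bottom of the sedentary range, where sedentary replicate 5 was the lowest. The log2 fold changes were -0.34 (SE 0.16) for 5p and -0.24 (SE 0.12) for 3p. The 3p arm is also among the steadiest abundant miRNAs of these libraries, with a within-group SD of 0.139 on the log2 scale against a median of 0.323 over 190 miRNAs of at least 100 CPM.

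Further miRNAs of the leading group were lower in the trained libraries with a wider spread, and none passed. miR-184-3p, known from lens and cornea (chr9:89802263-89802284, outside genes), ran from 44.0 over 140 to 504 CPM in the sedentary and from 46.5 over 73.7 to 137.8 CPM in the trained libraries. The highest value was sedentary replicate 1, and the next sedentary library had 191.8 CPM. The log2 fold change was -1.12 (SE 0.54), and -0.53 without sedentary replicate 1. miR-672-5p, in an intron of Nexmif on the X chromosome, ran from 31.2 over 72.8 to 121.8 CPM and from 14.8 over 45.4 to 71.8 CPM, with a log2 fold change of -0.85 (SE 0.39). The groups overlapped between 31.2 and 71.8 CPM, and the highest trained library was under the sedentary median. miR-146b-5p, a brake on inflammatory signalling induced by NF-kB and also known in adipocyte differentiation, ran from 1104 over 1403 to 2767 CPM and from 850 over 1105 to 1939 CPM. Its highest value in each group stood alone, sedentary replicate 4 and trained replicate 1. The log2 fold change was -0.45 (SE 0.22), between -0.67 without that trained library and -0.23 without that sedentary one.

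The miRNAs miR-330-5p and miR-24-2-5p complete the lower side of the leading group. miR-330-5p, in an exon of Eml2, had 38.7 ± 4.2 CPM in the sedentary and 32.04 ± 2.13 CPM in the trained libraries, a log2 fold change of -0.27 (SE 0.13), with all 6 trained libraries under the sedentary median. miR-24-2-5p, the minor arm of a hairpin clustered with miR-23a and miR-27a, had 550 ± 163 and 434 ± 89 CPM and a log2 fold change of -0.34 (SE 0.18), with 1 trained library above the sedentary median. Without sedentary replicate 4, the highest of its group, the log2 fold change was -0.22.

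On the higher side, miR-664-3p from an intron of Rab3gap2 (chr1:185243012-185243033) ran from 46.9 over 56.4 to 63.8 CPM in the sedentary and from 57.6 over 68.7 to 89.8 CPM in the trained libraries. Each trained library exceeded the sedentary median, and trained replicates 1, 2 and 6 exceeded every sedentary library. The log2 fold change was 0.33 (SE 0.14), with an edgeR unadjusted p = 0.033. miR-10a-3p (chr11:96317227-96317248), the minor arm of a miRNA in the HoxB cluster, ran from 31.8 over 34.9 to 45.2 CPM and from 41.2 over 44.5 to 62.5 CPM. Again all 6 trained libraries exceeded the sedentary median, while 4 of them lay inside the sedentary range. Its log2 fold change was 0.40 (SE 0.19).

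**Figure D2:**
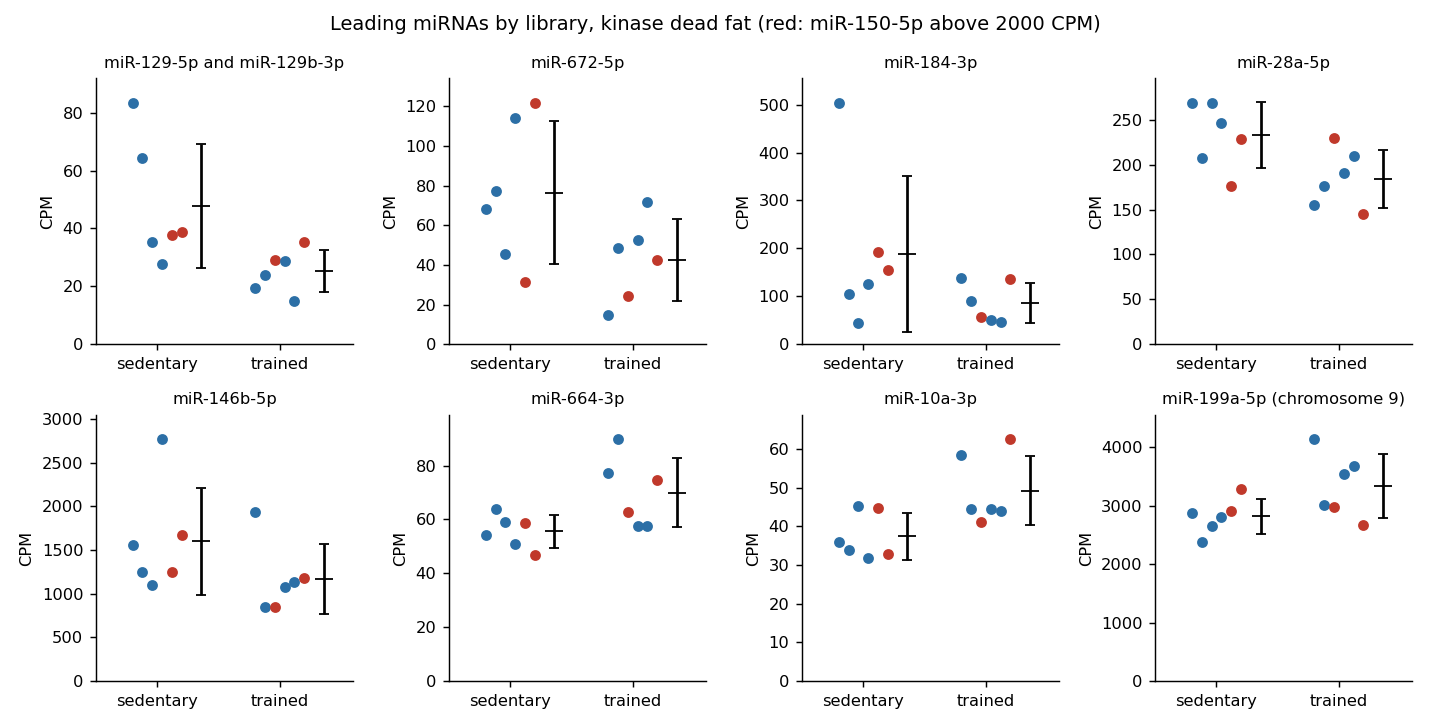
CPM in each of the 12 kinase dead libraries for miRNAs of the leading group and miR-199a-5p, with black marks for the mean ± SD of each group and red for the 4 libraries of high miR-150-5p. In every panel the ranges of the groups overlap, and single libraries such as sedentary replicate 1 at 504 CPM for miR-184-3p stand apart.

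Of the 17 features at an unadjusted p under 0.05, 14 remained with shared reads counted once (6 higher, 8 lower), and 8 of these were under 10 CPM. The 4 scarce ones with the smallest p were miR-542-5p, miR-1981-3p, miR-499-5p and miR-365-1-5p. miR-542-5p, from the X-linked cluster that also holds miR-322 and miR-450, ran from 1.08 over 2.15 to 2.30 CPM in the sedentary and from 0.788 over 1.01 to 1.19 CPM in the trained libraries, a log2 fold change of -0.91 (SE 0.29). Sedentary replicate 5 lay within the trained range and the other 5 sedentary libraries lay above it, at levels where 3 reads stand for up to 1.31 CPM. Its major arm miR-542-3p had 116 ± 19 and 102 ± 35 CPM and a log2 fold change of -0.18 (SE 0.21).

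miR-499-5p, from an intron of Myh7b, marks slow skeletal and cardiac muscle. It ran from 2.12 over 4.34 to 6.17 CPM in the sedentary and from 3.94 over 7.24 to 10.8 CPM in the trained libraries, with 5 trained libraries above the sedentary median and a log2 fold change of 0.82 (SE 0.29). The more abundant muscle miRNAs miR-1a-3p and miR-133a-3p had log2 fold changes of -0.77 and -1.01 over the same libraries. Both turned positive without sedentary replicate 2, where miR-499-5p had 4.31 CPM. miR-1981-3p, in an intron of Marc2, had 7.29 ± 1.20 and 10.3 ± 2.1 CPM (0.52, SE 0.18). miR-365-1-5p, the minor arm of a hairpin clustered with miR-193b and known in brown fat, had 2.72 ± 0.84 and 3.89 ± 0.99 CPM (0.58, SE 0.23). For both, all 6 trained libraries exceeded the sedentary median. The abundant arm miR-365-3p at its first locus stood at 0.30 (SE 0.18).

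The most abundant miRNAs differed little between the groups. Shared reads count at each of their loci in the total CPM of the tested loci, so the next values are not shares of distinct reads. The 10 most abundant held 48% of that total in the sedentary and 47.4% in the trained libraries. Their sequences are shown for their abundance, and miR-143-3p is given by name only.
miR-21a-5p: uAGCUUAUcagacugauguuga
miR-126a-3p: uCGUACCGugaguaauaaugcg
miR-148a-3p: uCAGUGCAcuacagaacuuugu
miR-30a-5p: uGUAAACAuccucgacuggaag
miR-26a-5p: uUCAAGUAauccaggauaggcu
miR-99a-5p: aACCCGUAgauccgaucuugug
let-7g-5p: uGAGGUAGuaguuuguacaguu
let-7i-5p: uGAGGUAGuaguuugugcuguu
miR-101a-3p: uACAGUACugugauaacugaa
The let-7 pair shares 1 seed, and the other 7 carry seeds of their own. Of the let-7 family and miR-98, both arms included, 14 of the 21 members counted once had a difference above 0. The median of the 21 was 0.08.

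The smooth muscle miRNA miR-143-3p, which also acts in adipocyte differentiation, led at 135308 ± 35561 CPM in the sedentary and 131154 ± 24598 CPM in the trained libraries. Its log2 fold change was -0.04 (SE 0.16), and the 95% interval of the ratio ran from 0.769 to 1.22. miR-21a-5p, which is widespread in stressed and growing tissue and lies within an exon of Vmp1, had 111718 ± 20717 and 99938 ± 14844 CPM, a ratio interval of 0.723 to 1.11. Changes larger than those bounds therefore lay outside the intervals of these 2 miRNAs.

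The endothelial miR-126a-3p, from an exon of the Egfl7 transcript unit, shares its reads with the opposite-strand miR-126b-5p. It ran from 29162 over 56840 to 71956 CPM in the sedentary and from 37820 over 42668 to 55557 CPM in the trained libraries. Every trained library was under the sedentary median, but sedentary replicates 5 and 6 were the lowest 2 of all 12. The log2 fold change was -0.24 (SE 0.19), and it was -0.36 without sedentary replicate 5 and -0.14 without sedentary replicate 4. Sedentary replicates 5 and 6 are among the 4 libraries of high miR-150-5p, and sedentary replicate 4 is not. Its partner arm miR-126a-5p stood at 0.04 (SE 0.13). Among the other abundant miRNAs the log2 fold changes were -0.20 for miR-101a-3p, -0.10 for miR-26a-5p at its second locus, -0.04 for miR-148a-3p, 0.06 for miR-30a-5p, 0.08 for let-7i-5p, 0.13 for let-7g-5p and 0.16 for miR-99a-5p, each with an SE between 0.14 and 0.20.

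Whether training differed between the genotypes was tested as the difference of the training effects, kinase dead minus wild type. With edgeR, 0 of 654 features (0%) passed at an adjusted p under 0.05, the smallest adjusted p was 0.9996, and 13 (1.99%) had an unadjusted p under 0.05. DESeq2 gave 0 and 14. No training difference named here was thus shown to be particular to kinase dead fat. The 4 of at least 10 CPM with the smallest p were miR-451a, miR-129b-3p, miR-224-5p and let-7b-3p. Their sequences not yet printed follow.
miR-451a: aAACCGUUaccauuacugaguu
miR-224-5p: uAAGUCACuagugguuccguu
let-7b-3p: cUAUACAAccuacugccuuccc
miR-451a, the erythroid miRNA that bypasses Dicer, had 1622 ± 720 CPM in sedentary and 2160 ± 743 CPM in trained kinase dead fat, against 3050 ± 2120 and 1695 ± 830 CPM in wild type. The training log2 fold changes were 0.41 in kinase dead and -0.85 in wild type, a difference of 1.26 (95% interval 0.19 to 2.33).

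miR-129b-3p had 32.6 ± 7.5 CPM in sedentary and 32.3 ± 11.1 CPM in trained wild type fat, a log2 fold change of -0.02, so that its difference of training effects was -0.91 (95% interval -1.72 to -0.10). For miR-224-5p, from an intron of Gabre, the training log2 fold changes were 0.21 in kinase dead and -0.41 in wild type. For let-7b-3p, the passenger arm of let-7b, they were 0.26 and -0.18. The adjusted p of all 4 differences was 0.9996 in edgeR.

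Summing the reads of loci that share a seed gave 404 seed families. With edgeR 0 of them (0%) passed and 12 (2.97%) had an unadjusted p under 0.05, DESeq2 passed 0, and the smallest adjusted p was 0.641. The leading families were the seeds of miR-129b-3p (AAGCCCA, log2 fold change -0.91), miR-129-5p (UUUUUGC, -0.85) and miR-542-5p (UCGGGGA, -0.82), which are the miRNAs already named, each alone in its family among the tested loci apart from the copies of miR-129-5p. Of the 654 loci, 514 had a RefSeq sequence and could be placed in a family.

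The balance of the arms of a hairpin does not depend on library scaling, and it was tested as the log2 ratio of 5p to 3p reads in 111 hairpins. With limma 0 (0%) passed at an adjusted p under 0.05, the smallest being 0.819, and 3 (2.7%) had an unadjusted p under 0.05. These were miR-379, miR-136 and miR-3071, where miR-3071 faces miR-136 on the opposite strand and mirrors its reads. The next 2 by p were miR-434 and miR-411. All 5 come from the imprinted Dlk1-Dio3 region of chromosome 12, whose maternally expressed miRNA clusters are known from embryonic growth and metabolism. Their arms are printed because the 3p arms of miR-379 and miR-411 share 1 seed, while the seeds of their 5p arms differ.
miR-379-5p: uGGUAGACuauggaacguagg
miR-379-3p: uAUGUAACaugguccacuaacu
miR-411-5p: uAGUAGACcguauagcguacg
miR-411-3p: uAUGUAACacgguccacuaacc
miR-434-5p: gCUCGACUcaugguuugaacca
miR-434-3p: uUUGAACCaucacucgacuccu
miR-136-5p: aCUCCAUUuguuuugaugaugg
miR-136-3p: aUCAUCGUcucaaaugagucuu

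In all 4 of these hairpins the log2 fold change was below 0 for the 5p arm and near 0 for the 3p arm. miR-379-5p had 568.6 ± 194.2 CPM in the sedentary and 402 ± 119 CPM in the trained libraries, a log2 fold change of -0.50, and miR-379-3p had 12.1 ± 1.7 and 12.0 ± 3.1 CPM, a log2 fold change of 0.00. For the 5p and 3p arms the log2 fold changes were -0.40 and 0.03 in miR-411, -0.43 and -0.09 in miR-434, and -0.55 and 0.05 in miR-136. The log2 arm ratio of miR-379 ran from 4.82 to 5.96 in the sedentary and from 4.88 to 5.21 in the trained libraries. Sedentary replicate 5 was the lowest of all 12, and the other 5 sedentary libraries lay above every trained one.

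The same library was the exception for miR-411, whose ratio ran from 3.27 to 4.26 and from 3.35 to 3.79. The differences in the log2 ratio were -0.43 (SE 0.20) for miR-379, -0.37 (SE 0.19) for miR-411, -0.38 (SE 0.20) for miR-434 and -0.69 (SE 0.32) for miR-136. In miR-136 and miR-434 the lowest ratios came from trained replicates 2 and 6, and the groups overlapped more widely. Those libraries were the shallowest of the trained group, at 2.29 and 3.92 M reads, with miR-136-5p at 5.6 and 7.6 CPM. Without trained replicate 2 the miR-136 difference was -0.49. Over the 8 Dlk1-Dio3 hairpins with both arms, 5 had a lower ratio in the trained group and the median difference was -0.36, against 65 of 111 and a median of -0.03 over all hairpins. Both counts include mirrored opposite-strand hairpins, such as miR-136 and miR-3071, whose differences of -0.69 and 0.69 come from the same reads. The region was named because the 5 hairpins of smallest p lie in it, so its count and median give no separate support. Within it miR-127 and miR-409 had higher ratios in the trained group, by 0.13 and 0.14.

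**Figure D3:**
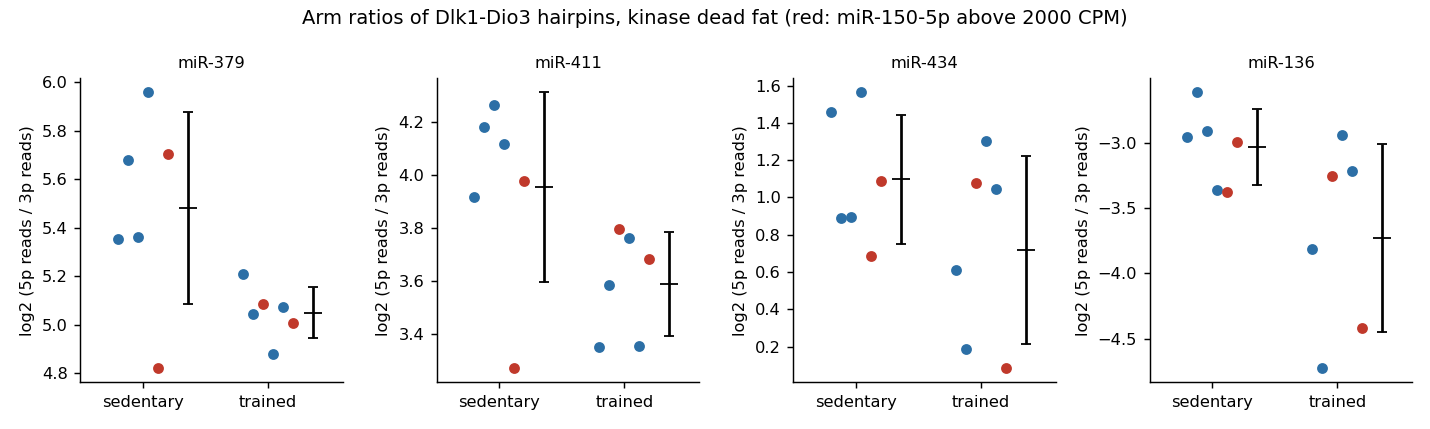
Log2 ratio of 5p to 3p reads in each kinase dead library for 4 Dlk1-Dio3 hairpins, with black marks for the mean ± SD of each group and red for the libraries of high miR-150-5p. For miR-379 and miR-411, 1 sedentary library (replicate 5) lies below every trained one and the other 5 lie above them.

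Lists of miRNAs known for a role in fat were described by their counts, and 0 members of any list passed the edgeR test (0% of all features did). These lists and those of families and markers hold both arms of a hairpin where both were tested. A counted member can thus be the minor arm of a known miRNA. Of 31 lists, 30 had a median that moved by over 1.5 times or changed sign when 1 library was left out, the exception being the family of miR-15 and miR-16. Of the miRNAs known to promote adipogenesis, 18 of 29 had a difference above 0, with a median of 0.04. Of those known to restrain it, 3 of 19 did, with a median of -0.11, which was -0.13 without sedentary replicate 4 and -0.05 without trained replicate 1. Over all 552 features the count above 0 was 255 and the median -0.02. In the first list miR-143-3p was the most abundant member, and miR-146b-5p had the smallest p. In the second these were miR-22-3p, at 22242 ± 7492 and 20223 ± 16217 CPM, and miR-222-5p, at 6.995 ± 1.421 and 5.92 ± 0.61 CPM with a log2 fold change of -0.24 (SE 0.16). In wild type fat the medians of the lists were -0.03 and -0.37.

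For the brown and beige programme, miRNAs known to promote it had 18 of 30 above 0 and a median of 0.04, and those known to restrain it had 6 of 15 and a median of -0.02. Among the first, miR-26a-5p was the most abundant, and miR-129b-3p and miR-365-1-5p were the only 2 at an unadjusted p under 0.05, in opposite directions. There miR-129b-3p stands for the reads it shares with miR-129-5p, and miR-365-1-5p is the minor arm of its hairpin. In the second, miR-27b-3p, a repressor of Prdm16, was level at 12567 ± 993 and 12502 ± 1945 CPM, with a 95% interval of the ratio from 0.852 to 1.16. miR-133a-3p, which also targets Prdm16 and is abundant in muscle, is taken up with the muscle miRNAs.

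Of the miRNAs known from inflammation, 3 of 15 were above 0 and the median was -0.18, with miR-21a-5p the most abundant and miR-146b-5p of the smallest p. That median was -0.34 without sedentary replicate 3 and -0.10 without sedentary replicate 6. The granulocyte and macrophage miRNA miR-223 had log2 fold changes of -0.39 (SE 0.20) for its 5p and -0.06 (SE 0.14) for its 3p arm, and the first was -0.19 without sedentary replicate 4. Of the miRNAs known for insulin sensitivity of fat, 6 of 16 were above 0, with a median of -0.05. The hypoxia miRNA miR-210-3p had 502.9 ± 73.1 CPM in the sedentary and 554 ± 33 CPM in the trained libraries, a log2 fold change of 0.14 (SE 0.13), with all 6 trained libraries above the sedentary median.

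Among families, the group of miR-15, miR-16 and their relatives miR-195, miR-322 and miR-497, known to restrain the cell cycle, had 3 of 14 members above 0 and a median of -0.25. Those 14 include other arms of the hairpins, such as miR-497a-3p, which does not carry the seed of miR-16-5p. In this family miR-16-5p at its first locus had 1633 ± 312 and 1322 ± 310 CPM (log2 fold change -0.30, SE 0.22). miR-497a-3p had 6.04 ± 1.64 and 3.82 ± 1.31 CPM (-0.66, SE 0.26), and no trained library lay above the sedentary median. For miR-322-5p the log2 fold change was -0.28 (SE 0.19). The Dlk1-Dio3 miRNAs had 21 of 61 above 0 and a median of -0.07, which was -0.18 without trained replicate 5 and 0.01 without trained replicate 3. Their most abundant member was miR-127-3p at 1368 ± 212 and 1182 ± 258 CPM, and miR-485-5p had the smallest p (8.37 ± 1.90 and 5.69 ± 1.75 CPM, log2 fold change -0.51, SE 0.22). In wild type fat the medians of these 2 families were -0.05 and -0.17.

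The other families had medians between -0.18 and 0.11. The miR-30 family had 7 of 11 above 0 and a median of 0.04, with miR-30c-2-3p, the passenger arm of miR-30c, at 139 ± 13 and 169 ± 43 CPM. The family of miR-125, miR-100, miR-99 and miR-10 had 10 of 15 and 0.02, the miR-17 to 92 clusters 15 of 22 and 0.05, the family of miR-148 and miR-152 4 of 6 and 0.05, the miR-26 family 3 of 5 and 0.04, and the family of miR-23, miR-24 and miR-27 5 of 11 and -0.01. The miR-29 family had 3 of 7 and -0.03, miR-196 had 1 of 4 and -0.08, and the X cluster of miR-322 to miR-450 had 4 of 11 and -0.01. The family of miR-34 and miR-449 had 1 of 6 and -0.18, led by miR-34c-5p at 391 ± 113 and 343 ± 77 CPM. The cluster of miR-183, miR-96 and miR-182 had 2 of 3 and 0.11.

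**Figure D4:**
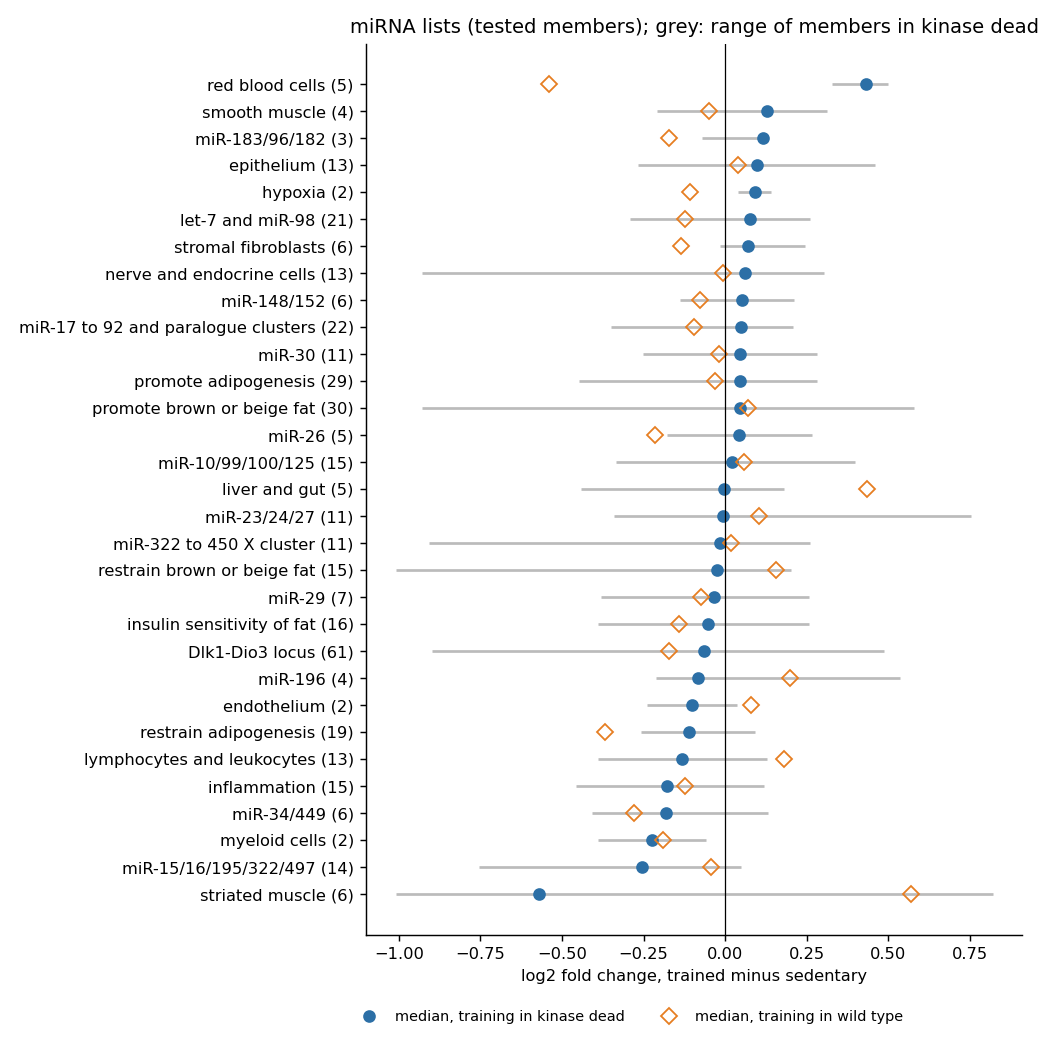
Median log2 fold change of each list of miRNAs for training in kinase dead fat (filled) and in wild type fat (open), with grey lines for the range of the members in kinase dead and the number of members in brackets. Striated muscle at -0.57 and red blood cells at 0.43 are farthest from 0 in kinase dead fat, and both have wild type medians of the other sign; without sedentary replicate 2 the muscle median is 0.70.

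Markers of cell types other than adipocytes were summed in each library. Striated muscle miRNAs had 2 of 6 above 0 and a median of -0.57, and their sum ran from 239 over 423 to 4258 CPM in the sedentary and from 366 over 610 to 1223 CPM in the trained libraries. The highest sum belonged to sedentary replicate 2, in which miR-1a-3p, the main miRNA of striated muscle, had 3642 CPM against 202 to 1101 CPM in the other 11 libraries. miR-133a-3p had 500.5 CPM there and 25.6 to 115 CPM elsewhere. Without that library the log2 fold changes of these miRNAs turned from -0.77 to 0.32 for miR-1a-3p and from -1.01 to 0.37 for miR-133a-3p, and the median of the list from -0.57 to 0.70, so these directions rested on 1 library. Skeletal muscle carried with the fat pad was not tested as its source.

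Red blood cell miRNAs were above 0 in 5 of 5 members, with a median of 0.43 and a wild type median of -0.54. Their sum ran from 1564 over 2311 to 5127 CPM in the sedentary and from 2220 over 3241 to 5154 CPM in the trained libraries, which is nearly the same range. Without sedentary replicate 2, which had the highest sedentary sum, the median of the list was 0.76. miR-486-5p, in an intron of Ank1, had 296 ± 127 and 419 ± 144.6 CPM (log2 fold change 0.50, SE 0.41). miR-144 and miR-451a come from 1 genomic cluster and the arms of miR-486 from 1 hairpin, so the members are not independent, and the part that the amount of blood in a sample has in these values was not tested.

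Lymphocyte and leukocyte miRNAs had 2 of 13 above 0 and a median of -0.13, and sums of 3412 to 23956 CPM in the sedentary and 2918 to 22968 CPM in the trained libraries. Sums of 19207 and 23956 CPM in 2 sedentary and of 16447 and 22968 CPM in 2 trained libraries stood far above the other 8, which ran from 2918 to 3895 CPM, so the spread inside each group was wide. miR-142a-5p, the most abundant of them and known from blood cells, ran from 512 to 10680 CPM over the 12 libraries, and the 95% interval of its ratio was 0.211 to 3.90. The median of the list was -0.51 without trained replicate 6 and 0.14 without sedentary replicate 5. Differences of lymphocyte miRNAs with training were therefore not resolved over all 12 libraries.

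Other marker lists differed less between libraries. Smooth muscle miRNAs had sums of 92508 to 173850 CPM and 99301 to 174330 CPM in the sedentary and trained groups, with 2 of 4 members above 0. Within that list both arms of the miR-145a hairpin had positive differences, 0.31 (SE 0.16) for 3p and 0.30 (SE 0.16) for 5p. Both arms of miR-143 had negative ones, -0.21 for 5p and -0.04 for 3p. The stromal miRNAs miR-199a, miR-199b and miR-214 had 4 of 6 above 0, a median of 0.07 and sums of 15877 to 22770 and 15947 to 24277 CPM. Epithelial miRNAs had 9 of 13 above 0 and a median of 0.10, and sums of 14501 to 22945 and 15367 to 24877 CPM. The skin miRNA miR-203-3p had 2261 ± 384 and 2568 ± 532 CPM (log2 fold change 0.18, SE 0.15), and miR-200a-3p had 9117 ± 1770 and 9922 ± 1991 CPM. Endothelial miRNAs had 1 of 2 above 0, myeloid miRNAs 0 of 2, liver and gut miRNAs 2 of 5, and nerve and endocrine miRNAs 8 of 13 with a median of 0.06.

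A second pattern among the libraries set 1 library of each group apart. The second principal component held 11.7% of the variance, and trained replicate 2 and sedentary replicate 2 lay at one end of it, with miR-193a-3p, miR-376a-3p, miR-29b-3p, miR-15a-5p and miR-181c-5p as the leading miRNAs. miR-193a-3p had 1050 CPM in trained replicate 2, 690 CPM in sedentary replicate 2, 318 CPM in sedentary replicate 3 and 38.3 to 219.2 CPM in the other 9 libraries. miR-29b-3p at its first locus had 1599 and 1464 CPM in the first 2 of these and 205.2 to 655.5 CPM in the other 10. Abundant miRNAs followed the same pattern. miR-22-3p had 53270 CPM in trained replicate 2 and 34230 CPM in sedentary replicate 2, against 12480 to 28880 CPM in the rest, and miR-29a-3p had 26820 and 20280 CPM against 8388 to 15570 CPM. Trained replicate 2 was also the shallowest of the 12 at 2.29 M reads, while sedentary replicate 2 had 7.25 M, and the part of depth in this pattern was not tested. Without both libraries, edgeR still passed 0 features for training, with 16 at an unadjusted p under 0.05.

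**Figure D5:**
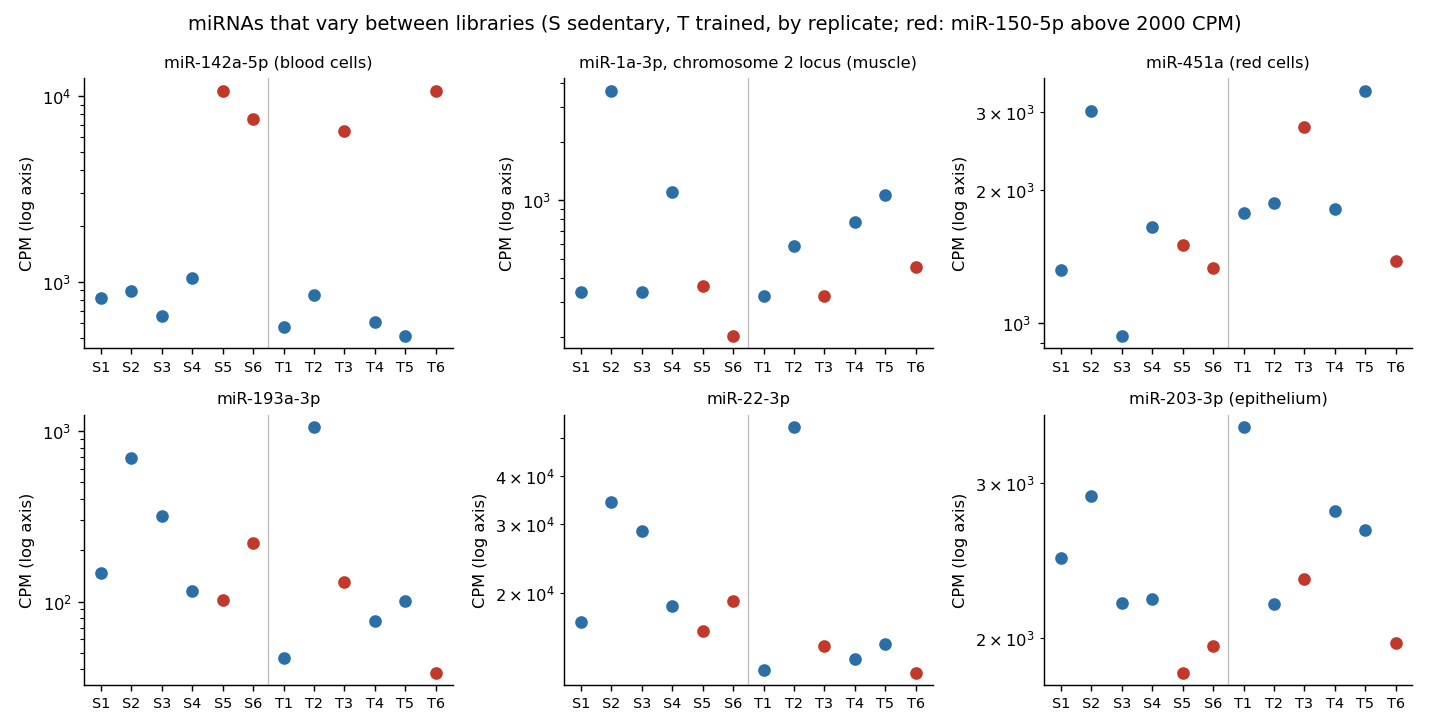
CPM (log axis) of 6 miRNAs in each sedentary (S) and trained (T) kinase dead library, in red for the libraries of high miR-150-5p. miR-142a-5p is high in 2 libraries of each group, miR-1a-3p at its chromosome 2 locus in S2 alone, and miR-193a-3p and miR-22-3p in S2 and T2.

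The comparison was repeated without the 7 libraries of the whole series with miR-150-5p above 2000 CPM. In kinase dead fat this removed the 4 of high miR-150-5p and left 4 sedentary and 4 trained. The others removed from the fit were wild type. edgeR then passed 0 of 654 features (0%) with 44 (6.73%) at an unadjusted p under 0.05. The smallest adjusted p was 0.256. DESeq2 gave 0 at the adjusted and 38 at the unadjusted threshold. The 4 sedentary and 4 trained kinase dead libraries did not overlap in 25 features (3.82%). The smallest p belonged to miR-199a-5p, a stromal miRNA, whose mature sequence is shown for that reason.
miR-199a-5p: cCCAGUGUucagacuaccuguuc
Its locus on chromosome 9 (chr9:21496537-21496559) had 2382 to 2875 CPM in the 4 sedentary and 3016 to 4138 CPM in the 4 trained libraries, with no overlap. The log2 fold change was 0.46 (SE 0.12, 95% interval 0.20 to 0.71) with an adjusted p = 0.256, against 0.24 (SE 0.15) over all 12 libraries, where sedentary replicate 6 at 3292 CPM and trained replicate 6 at 2671 CPM lay in the other group's range. The stromal miR-199a-3p, at its first locus, overlapped between those 4 sedentary and 4 trained libraries. It had 6639 to 8003 CPM in the sedentary and 6895 to 8895 CPM in the trained ones.

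In the same 8 libraries the log2 fold change was -1.27 (SE 0.34) for miR-129b-3p, miR-542-5p -1.01 (SE 0.32), miR-365-1-5p 0.60 (SE 0.21), miR-145a-5p 0.41 (SE 0.15), miR-28a-5p -0.41 (SE 0.18) and miR-126a-3p -0.38 (SE 0.16). Each kept the sign it had over 12 libraries, but these 8 are part of those 12, so the sign gives no separate support. None passed. miR-5121, which had 75.2 ± 44.5 and 142.6 ± 81.4 CPM over all 12 libraries (log2 fold change 0.92, SE 0.50), stood at 1.55 (SE 0.59) here. It was chosen after its values were seen, as the largest positive difference among miRNAs of at least 100 CPM, and its wild type log2 fold change was 1.19.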

How the data were processed

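Small RNA of mouse subcutaneous fat was sequenced after TRIzol extraction and a NEBNext small RNA library, per the labels' protocols. Per the submitters' processing notes the tools were CASAVA 1.8.2, Trim Galore, Bowtie2 and featureCounts, with build mm10. Treatment of strand, multiple mapping and overlaps, like the annotation, was not given in the sources used here. Raw read counts per mature miRNA locus (2045 loci), 1 column per library, are what the authors deposited. In 23 of 25 opposite-strand pairs of at least 1000 reads the totals differed by under 1%, so such loci share their reads here. Loci were named by RefSeq coordinates (1670), by a RefSeq entry of the same accession (4), or by GENCODE hairpin and arm (371). Copies are numbered as locus 1 and locus 2.

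Counts were fitted in edgeR 4.0.16 (R 4.3.3) with its quasi-likelihood test, TMM factors and filterByExpr, in 1 fit of the 4 groups of 6 libraries, with Benjamini-Hochberg adjustment over the 654 features and a threshold of 0.05. The 1391 loci below the filter held 0.0166% of the reads. CPM are scaled by the TMM factors, means carry the SD over libraries, and fold changes carry the SE. Seed families (bases 2 to 8) were fitted likewise on summed counts. Arm ratios were tested with limma 3.58.1 on log2 ratios with 0.5 added to each count, for hairpins with at least 10 CPM on both arms. DESeq2 1.42.0 was an alternative, beside other scalings, no filter, leaving out libraries, and miR-150-5p as a covariate. The edgeR and DESeq2 fits of training and the limma fit of arm ratios were tested on simulated data. All kinase dead libraries were distinct (over 66 pairs the chi-square of the counts was at least 79.3 per degree of freedom).

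Named miRNAs are the 10 of smallest p with at least 10 CPM, the 4 of smallest p under 10 CPM, the 10 most abundant, the most abundant member and the member of smallest p of each list, the 4 of smallest p for the difference of training effects, and the 3 leading seed families and hairpins. Partner arms and miRNAs that stand apart were added after their values were seen. The miRNAs, lists and tests were chosen with earlier results of these data known. Sequences from chromosome 18 and those not in the RefSeq table are not printed.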

Additional observations from a re-analysis of the deposited data

Results flagged for a closer look

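Each named miRNA was examined in both groups of 6 libraries for a highest or lowest library far from the others, measured as its gap to the next library over the range of the group. Of 128 groups examined 15 had such a library. The cutoff flags about 1 in 20 groups when values are independent and normally spread. These miRNAs share libraries and some share reads, so the count cannot be set against that rate. Sedentary replicate 2 was the highest of its group in 4 miRNAs of muscle and blood: miR-1a-3p at 3642 CPM (next 1101), miR-133a-3p at 500.5 CPM (next 77.7), miR-451a at 3009 CPM (next 1646) and miR-486-5p at 542.6 CPM (next 306). Trained replicate 2 was the highest in miR-22-3p at 53270 CPM (next 14780), in miR-29a-3p at 26820 CPM (next 13330) and in miR-196b-3p at 8.33 CPM (next 3.90).

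Sedentary replicate 4 was the highest in miR-146b-5p at 2767 CPM (next 1671), in miR-223-5p at 140.9 CPM (next 83.7) and in miR-26a-5p at 37660 CPM (next 28920). Trained replicate 1 was the highest in miR-146b-5p at 1939 CPM (next 1175), and trained replicate 6 in miR-106b-3p at 416 CPM (next 241). Sedentary replicate 1 was the highest in miR-184-3p at 504 CPM (next 191.8) and sedentary replicate 5 in let-7g-5p at 30230 CPM (next 24760). Sedentary replicate 6 was the lowest in miR-30c-2-3p at 112 CPM (next 140.4).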

How the results depend on the processing

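With every alternative tried, 0 features, 0 seed families and 0 arm ratios passed for training in kinase dead fat, and 0 features for the difference of training effects. The number of features at an unadjusted p under 0.05 was 17, and it was 65 with no filter beyond 1 read, 44 without the libraries of high miR-150-5p, 32 with miR-150-5p as a covariate, and 15 to 40 when 1 library was left out, with 40 without sedentary replicate 5. Of 1344 values of the 64 named miRNAs under alternatives, 0 came past the threshold. Among the 42 named miRNAs whose difference exceeded its SE, 4 values turned direction, all for muscle miRNAs. Counting differences of any size, 60 values of 16 named miRNAs had the other sign, such as miR-92a-3p between -0.19 and 0.40 without 1 library, and 18 of 31 list medians changed sign without 1 library. For miR-133a-3p the log2 fold change ran from -1.27 to 0.37 over the fits without 1 library, and for miR-1a-3p from -0.99 to 0.32, the positive values being those without sedentary replicate 2. Without sedentary replicate 2 and trained replicate 2, a setting chosen after seeing the data, they were 0.30 and 0.33. The smallest adjusted p of the arm ratios was 0.092 when hairpins of at least 1 CPM on each arm were included.

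No paired analysis was possible because the replicate numbers follow accession order and the labels name no shared animal, litter or day. Depth limits the scarce miRNAs, since 3 reads stand for up to 1.31 CPM in the shallowest library.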

Other observations

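Spread within the groups differed widely between miRNAs of at least 100 CPM. The steadiest was miR-744-5p, which ran from 245 to 330 CPM over the 12 kinase dead libraries with a within-group SD of 0.124 on the log2 scale, followed by miR-378c (SD 0.135, 884 to 1236 CPM), miR-23b-3p (SD 0.137, 1992 to 2577 CPM) and miR-28a-3p. The widest were the blood miRNAs miR-142a-5p (SD 1.87), miR-142a-3p (1.75), miR-150-5p (1.63) and miR-155-5p (1.46). Within the 8 libraries of low miR-150-5p those 4 had SDs of 0.298, 0.357, 0.188 and 0.178.

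miR-193a-3p (SD 1.41) and miR-378b (SD 1.29) were as variable, and their SDs within the 8 libraries were 1.63 and 1.5. miR-378b took values in separate ranges: 439 to 579 CPM in sedentary replicates 1, 2 and 6 and trained replicate 1, and 68.98 to 94.97 CPM in the other 8 libraries. These 4 libraries differ from the 4 of high miR-150-5p except for sedentary replicate 6.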
